A study of Mus musculus with 7 samples.

Results

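De novo lipogenesis is the cytosolic pathway that builds fatty acids from carbohydrate carbon. Citrate leaves the mitochondrion and is cleaved to acetyl-CoA, acetyl-CoA is carboxylated to malonyl-CoA, and fatty acid synthase joins these units into palmitate at the cost of NADPH. Elongases and desaturases then lengthen the chain and place its first double bond. In the mouse the pathway is most active in liver, white and brown fat and the sebaceous gland, where insulin and sugar raise its genes through the transcription factors SREBP-1c and ChREBP. The genes followed here are 10 in number. They were chosen by symbol and not by their values: Acly, Acaca, Acacb, Fasn, Elovl6, Scd1, Scd2 and Me1 encode enzymes, and Srebf1 and Mlxipl encode the 2 transcription factors. All 10 had a probe named through its RefSeq accession, out of 21154 genes named in this way, and all 10 were among the 18032 genes tested. They were read by 17 probes, and 17 of 17 were well above background on all 7 arrays.

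The study, by its title, concerns β-catenin activation in the dermal sheath, the mesenchymal layer around the hair follicle. Its labels describe mouse dorsal skin cells taken at postnatal day 15. The sort kept YFP+ cells that lacked 3 surface markers, namely CD34, ALP (alkaline phosphatase) and ITGα8 (integrin α8), and each sample went onto a 1-colour expression array. Control mice numbered 4 on 3 arrays, since array 3 held a pool of 2; mice in which β-catenin was activated, called cΔex3, numbered 6 on 4 arrays, since arrays 2 and 3 each held such a pool. The YFP reporter is common to both groups. The promoter that drives recombination, the strain and the control genotype are not given in the sources used here.

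The 75th percentile of the processed signal, to which all values below are scaled, lay between 752 and 908 on the control arrays and between 1349 and 2158 on the cΔex3 arrays. Probes well above background made up 68.5% to 70.7% and 68.1% to 82% of all probes. Values are on the log2 scale relative to each array's 75th percentile, and every difference is cΔex3 minus control. The number of arrays limits their precision. Markers of cell types other than the labelled one were high in both groups. Of 20 hepatocyte markers, 20 were lower on the cΔex3 arrays, with a median difference of −9.07, and the list's median lay at 8.51 to 9.06 on the control arrays and at −2.84 to 0.52 on the cΔex3 arrays. Of 14 adipocyte markers, 14 were higher, with a median difference of 5.71, and lay at −0.3 to 0.66 and at 6.29 to 7.72. The defining genes moved with them: Alb, which encodes albumin, differed by −8.31 and Adipoq, the adiponectin gene, by 11.42. Dermal sheath and fibroblast markers were measured on both sides and were higher for 12 of 12, with a median difference of 3.18 and list medians of 0.69 to 2.15 on the control and 4.28 to 5.11 on the cΔex3 arrays. Among them Acta2, the smooth muscle actin gene, differed by 5.20 and Pdgfra, a growth factor receptor gene of fibroblasts, by 2.47. The labels are kept as group names below, and no difference is read as an effect of β-catenin on dermal sheath cells. The part of these cell types in the results below cannot be told apart from the groups. In RNA from a mixture, fewer cells of a type and less RNA per cell cannot be told apart.

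Few of the lipogenic genes separated the groups. Of the 10, 1 was higher on the cΔex3 arrays (Scd2), 2 were lower (Mlxipl and Elovl6) and 7 did not pass the threshold of an adjusted p of 0.05 (limma, Benjamini-Hochberg over 18032 genes, n = 3 and 4). Over all genes tested, 23.8% were called higher and 29.2% lower, together 53%, against 30% of the lipogenic genes. Of all called genes 44.9% were higher, a share that becomes 86.3% without scaling between arrays. For 2 of the 10 genes, Scd2 and Mlxipl, control and cΔex3 values did not overlap, as was so for 58.7% of all genes tested. The median absolute difference was 0.56 for the 10 genes and 0.91 for all genes, and the median signed difference 0.12 and −0.09. Their values spread more within groups than those of most genes. The median SD over the control arrays was 0.64 for the 10 genes and 0.23 for all genes, and over the cΔex3 arrays 0.92 and 0.4. Their SEs accordingly ran from 0.25 to 1.35, with a median of 0.55, where the median over all genes was 0.28. A difference that missed the threshold here therefore leaves a wide interval, which is given for each gene.

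**Figure D1:**
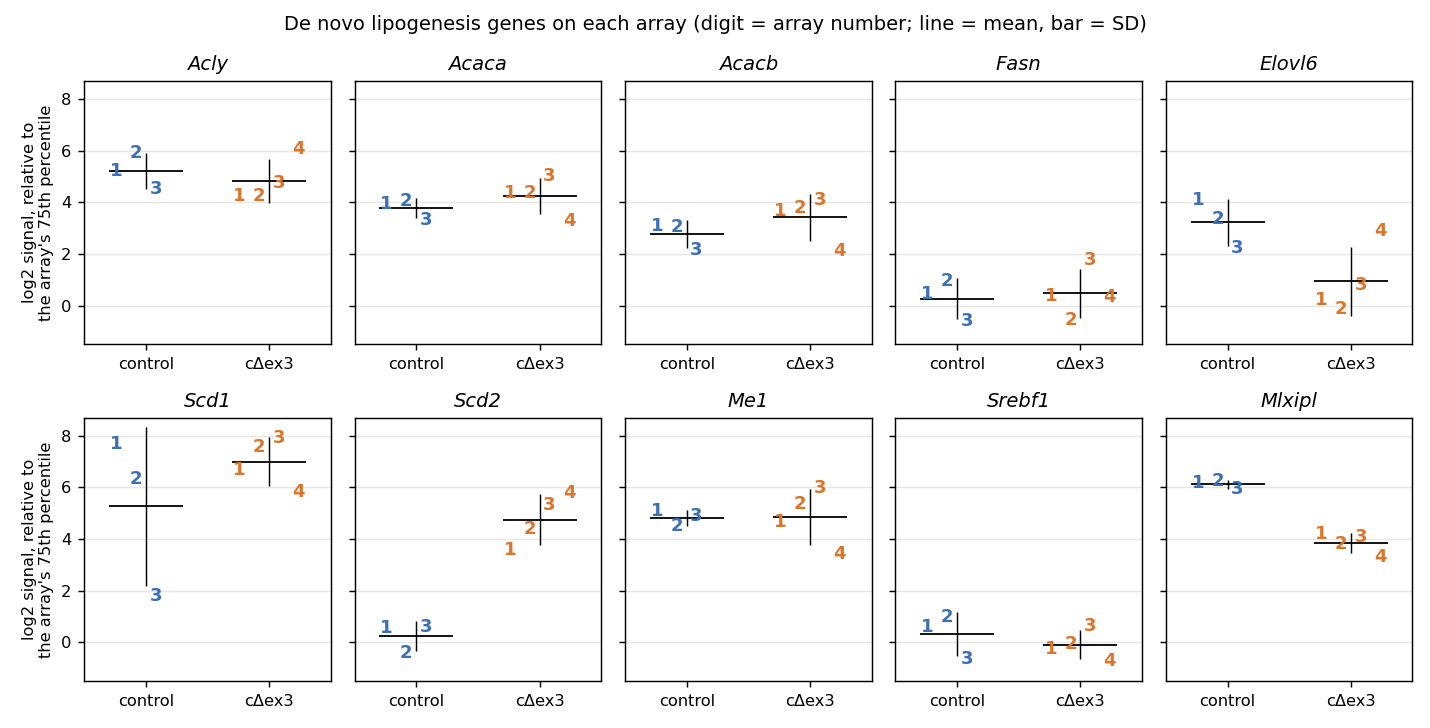
Log2 processed signal of the 10 lipogenic genes relative to the array's 75th percentile, with control arrays in blue and cΔex3 arrays in orange; each digit is the array's number, the horizontal line the group mean and the vertical bar its SD. Scd2 and Mlxipl separate the groups without overlap, and Scd1 on control array 3 lies at 1.79 against 7.68 and 6.34 on control arrays 1 and 2.

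Acly encodes ATP citrate lyase, which makes the cytosolic acetyl-CoA that the pathway starts from. It was measured at 5.21, 5.91 and 4.50 on control arrays 1 to 3 and at 4.23, 4.26, 4.76 and 6.06 on cΔex3 arrays 1 to 4. The groups overlapped, with cΔex3 array 4 highest of all 7 and the other cΔex3 arrays near control array 3. The difference was −0.38 ± 0.53 (SE; 95% interval −1.64 to 0.88; limma, adjusted p = 0.573), and its sign turned with quantile normalisation (0.38), with normexp (0.40), in the deposited series values (0.40) and without scaling (0.73). The other Acly probe differed by −0.29.

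Acaca and Acacb encode the acetyl-CoA carboxylases that make malonyl-CoA. The Acaca product, ACC1, supplies fatty acid synthase in the cytosol, whereas that of Acacb, ACC2, sits at the mitochondrion, where malonyl-CoA restrains the entry of fatty acids for oxidation. Acaca was measured at 3.94, 4.06 and 3.32 on the control arrays and at 4.35, 4.36, 5.00 and 3.29 on the cΔex3 arrays. Acacb was measured at 3.09, 3.06 and 2.15 and at 3.67, 3.78, 4.10 and 2.10. Both genes had the same order: cΔex3 arrays 1 to 3 lay above every control array, while cΔex3 array 4 lay at the level of control array 3 or under it. The difference was 0.48 ± 0.41 (SE; 95% interval −0.50 to 1.45; limma, adjusted p = 0.362) for Acaca and 0.65 ± 0.52 (SE; 95% interval −0.57 to 1.87; adjusted p = 0.323) for Acacb. Acacb passed the threshold without cΔex3 array 4, at 1.08 (adjusted p = 0.0221) and Acaca, at 0.80, did not. Without scaling between arrays both passed, Acaca at 1.59 (adjusted p = 0.00523) and Acacb at 1.76 (adjusted p = 0.00791). The 2 other probes of Acaca differed by 0.54 and 0.08, and the other probe of Acacb by 0.63, none past the threshold.

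The pair moved together across arrays. The log2 ratio of Acacb to Acaca within an array was −0.86, −0.99 and −1.18 on the control arrays and −0.69, −0.58, −0.90 and −1.19 on the cΔex3 arrays. It changed by 0.17 between the groups (exact permutation test over 35 assignments of the arrays, two-sided, p = 0.4; adjusted over 3 such pairs, p = 0.4). The test shows only whether the 2 genes changed unequally, since levels of different probes cannot be set against each other, and a p that misses the threshold does not show that they changed alike.

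Fasn encodes fatty acid synthase, the multienzyme that builds palmitate. It was measured at 0.44, 0.96 and −0.59 on the control arrays and at 0.35, −0.55, 1.76 and 0.33 on the cΔex3 arrays. The groups interleave: cΔex3 array 3 was highest, and control array 3 and cΔex3 array 2 were lowest. The difference was 0.20 ± 0.59 (SE; 95% interval −1.2 to 1.6; limma, adjusted p = 0.792), and it was −0.23 without control array 3 or without cΔex3 array 3. Only 1 probe read Fasn. Its promoter is shown as that of the central enzyme, because CCAAT boxes, bound by the factor NF-Y, are known partners of SREBP sites. The line below gives the 250 bases before the listed start of Fasn (GRCm38.p6, chr11:120824548-120824797, minus strand, RefSeq), 5′ to 3′, with matches to CCAAT on either strand in capitals; they begin 90, 62 and 59 bases before the start and the last 2 overlap by 2 bases.
Fasn: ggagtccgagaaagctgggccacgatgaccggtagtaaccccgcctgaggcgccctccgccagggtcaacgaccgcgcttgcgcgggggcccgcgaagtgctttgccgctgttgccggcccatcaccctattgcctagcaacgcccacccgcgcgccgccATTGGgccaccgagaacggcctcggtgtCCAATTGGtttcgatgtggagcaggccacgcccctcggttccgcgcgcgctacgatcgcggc

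Elovl6 encodes the elongase that takes palmitate to stearate. It was measured at 4.07, 3.36 and 2.24 on the control arrays and at 0.22, −0.14, 0.78 and 2.87 on the cΔex3 arrays. Of the latter, arrays 1 to 3 lay below every control array, and array 4 lay between control arrays 2 and 3. Elovl6 fell by 2.29 ± 0.78 (SE; 95% interval −4.14 to −0.45; limma, adjusted p = 0.0428), or 4.90-fold. The call was marginal and was lost in 12 of 21 other settings, whose adjusted p ran from 0.00154 to 0.255. It was lost without control array 1 (−1.87, adjusted p = 0.14) or 2 (−2.22, 0.112), without cΔex3 array 1 (−2.06, 0.0994), 2 (−1.94, 0.0946) or 3 (−2.24, 0.0811), under quantile normalisation (−1.96, 0.0838) and without scaling (−1.18, 0.255), and it was firmer without cΔex3 array 4 (−2.94, adjusted p = 0.00334). The direction held in all 21.

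Scd1 and Scd2 encode stearoyl-CoA desaturases, which put the double bond into oleate and palmitoleate. Scd1 is the main form of liver, fat and sebaceous gland, and Scd2 is best known from brain and from neonatal tissues. Scd2 was measured at 0.57, −0.41 and 0.59 on the control arrays and at 3.56, 4.37, 5.31 and 5.77 on the cΔex3 arrays. All 4 cΔex3 arrays lay above all 3 control arrays, and the gap between the nearest pair was larger than the spread within the control group. Scd2 rose by 4.50 ± 0.56 (SE; 95% interval 3.18 to 5.83; limma, adjusted p = 0.000705), or 22.7-fold, which was the largest difference of the 10 genes. It passed in all 21 other settings, at 4.05 to 5.61.

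Scd1 was measured at 7.68, 6.34 and 1.79 on the control arrays and at 6.69, 7.55, 7.93 and 5.82 on the cΔex3 arrays. Control arrays 1 and 2 lay within the range of the cΔex3 arrays, and control array 3 lay far below every other array. The difference was 1.73 ± 1.35 (SE; 95% interval −1.46 to 4.92; limma, adjusted p = 0.314), and it rests on that array: without control array 3 it was −0.01 (adjusted p = 0.992). The log2 ratio of Scd2 to Scd1 within an array was −7.11, −6.76 and −1.21 on the control arrays and −3.13, −3.18, −2.63 and −0.06 on the cΔex3 arrays. It changed by 2.78 between the groups (exact permutation test over 35 assignments, two-sided, p = 0.2; adjusted over 3 pairs, p = 0.3), and the groups overlapped. Without control array 3 the change was 4.68 and the groups did not overlap, and it was not tested. The desaturase genes are close in sequence, Scd1 and Scd2 were each read by 1 probe, and how far a probe reads the other genes was not tested.

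Me1 encodes the cytosolic malic enzyme, which supplies NADPH while returning carbon to pyruvate. It was measured at 5.08, 4.49 and 4.88 on the control arrays and at 4.64, 5.37, 5.98 and 3.43 on the cΔex3 arrays. The cΔex3 arrays bracketed the controls, with array 3 highest and array 4 lowest of all 7. The difference was 0.04 ± 0.58 (SE; 95% interval −1.32 to 1.41; limma, adjusted p = 0.957). The 2 other Me1 probes differed by −0.99 and 0.17, neither past the threshold.

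**Figure D2:**
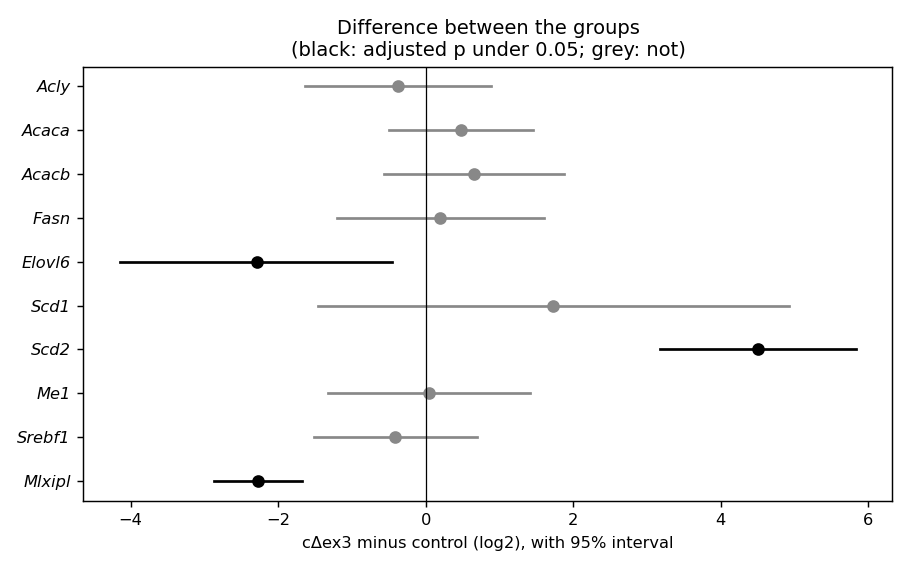
Difference between the cΔex3 and the control arrays on the log2 scale for each lipogenic gene (point) with its 95% interval from limma (line); black marks an adjusted p under 0.05 over all genes tested. Scd2 lies at 4.50, Elovl6 at −2.29 and Mlxipl at −2.27, and the other 7 intervals include 0.

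Srebf1 encodes SREBP-1, the factor that raises lipogenic genes in response to insulin, in the forms 1a and 1c that its starts give. It was measured at 0.59, 0.98 and −0.65 on the control arrays and at −0.26, −0.07, 0.64 and −0.72 on the cΔex3 arrays. The groups overlapped, with control array 3 and cΔex3 array 4 lowest. The difference was −0.41 ± 0.47 (SE; 95% interval −1.52 to 0.70; limma, adjusted p = 0.489). It was 0.70 without scaling, and with arrays of 1 mouse only it was −1.28 and passed (adjusted p = 0.0428). Only 1 probe read Srebf1, and which of its forms that probe reads is not known here.

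Mlxipl encodes ChREBP, the factor that answers to sugar metabolites in liver and fat. Its probe with the higher mean was measured at 6.17, 6.25 and 5.92 on the control arrays and at 4.21, 3.81, 4.07 and 3.29 on the cΔex3 arrays. All 4 cΔex3 arrays lay below all 3 control arrays. By this probe Mlxipl fell by 2.27 ± 0.25 (SE; 95% interval −2.87 to −1.67; limma, adjusted p = 0.000447), or 4.82-fold. Its other probe, with the same RefSeq accession and also well above background on all 7 arrays, was measured at 2.01, 2.47 and 2.57 on the control arrays and at 2.60, 1.89, 2.37 and 2.65 on the cΔex3 arrays. It overlapped fully and differed by 0.03 ± 0.25 (SE; adjusted p = 0.938 over all probes tested). The log2 ratio of the former to the latter was 4.16, 3.78 and 3.34 on the control arrays and 1.61, 1.92, 1.69 and 0.64 on the cΔex3 arrays, a change of −2.29. The mean of both probes differed by −1.12 (limma, adjusted p = 0.00279), and the probe with the higher mean by −1.16 without scaling (adjusted p = 0.00546). The fall of Mlxipl is thus a statement about 1 of 2 probes.

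**Figure D3:**
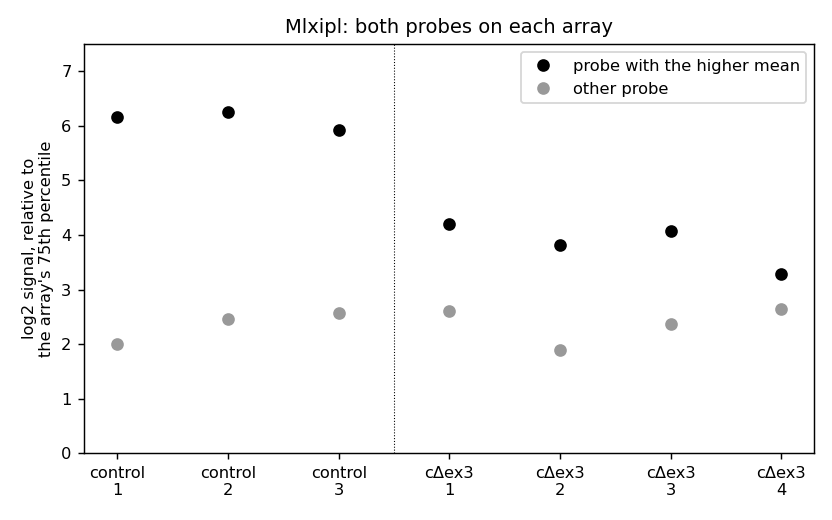
Log2 processed signal of both Mlxipl probes relative to the array's 75th percentile, on each of the 7 arrays. The probe with the higher mean (black) lies at 5.92 to 6.25 on the control and 3.29 to 4.21 on the cΔex3 arrays, while the other probe (grey) lies at 1.89 to 2.65 on all 7.

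Mlxipl is known to be transcribed from more than 1 start, which yields the α and β forms of ChREBP, and the position of the probes is not known here. The RefSeq table used here lists 2 starts, 17001 bases apart. The 250 bases before each are shown because they differ in the motifs that lipogenic factors are known to bind. Capitals mark matches on either strand to TCACNCCAC (a sterol response element type), CACGTG (an E-box, the core that ChREBP binds as a pair), CCAAT and GGGCGG (a GC box). The first window lies at chr5:135089640-135089889 and the second at chr5:135106641-135106890 (GRCm38.p6, plus strand, RefSeq, 5′ to 3′).
Mlxipl, first start: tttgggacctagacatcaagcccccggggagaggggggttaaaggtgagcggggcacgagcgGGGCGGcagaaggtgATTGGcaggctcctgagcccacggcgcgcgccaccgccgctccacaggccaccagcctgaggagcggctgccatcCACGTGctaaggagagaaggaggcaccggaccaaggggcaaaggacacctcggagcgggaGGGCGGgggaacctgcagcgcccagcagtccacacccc
Mlxipl, second start: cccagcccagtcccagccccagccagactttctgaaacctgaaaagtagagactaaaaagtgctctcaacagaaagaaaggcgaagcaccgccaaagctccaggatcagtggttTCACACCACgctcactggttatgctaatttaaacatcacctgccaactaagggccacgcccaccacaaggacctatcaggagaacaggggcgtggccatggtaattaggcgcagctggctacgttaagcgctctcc

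The first Mlxipl window held an E-box 98 bases before the start, a CCAAT box and 2 GC boxes, and no match to TCACNCCAC. The second held a single match, TCACNCCAC, 136 bases before the start. RefSeq windows were at hand for 8 of the 10 genes, 12 windows in all, and those of Scd1 and Scd2 were not used here. TCACNCCAC and CACGTG were found in no other of the 12 windows, where 1.05% and 6.02% of all 32851 windows of this length held them. CCAAT was found in 6 of the 12, before Acacb, Fasn, Me1, Mlxipl and Srebf1, against 33.8% of all windows. GGGCGG was found in 5 of the 12, before Acly, Me1, Mlxipl and Srebf1, against 32.7%. The windows of Acaca and Elovl6 held none of the 4 motifs. These are matches of letters and not measured binding. No 2 matches shared bases, except those of Fasn.

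The 2 factors were also compared within arrays. The log2 ratio of Mlxipl, by its probe with the higher mean, to Srebf1 was 5.57, 5.27 and 6.57 on the control arrays and 4.47, 3.89, 3.42 and 4.01 on the cΔex3 arrays. It was lower on all 4 cΔex3 arrays and changed by −1.86 (exact permutation test over 35 assignments, two-sided, p = 0.0286, the smallest p this design allows; adjusted over 3 pairs, p = 0.0857). With the adjustment it did not pass, and with the mean of the Mlxipl probes the change was −0.71. The other Mlxipl probe differed by 0.03 and Srebf1 by −0.41, so that the lower ratio rests on 1 of 2 Mlxipl probes.

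Within the control group the lipogenic genes were low together on array 3, which held RNA from 2 pooled mice. It was the lowest of the 3 control arrays for 8 of the 10 genes, where it was the lowest for 42% of all genes, and the exceptions were Scd2 and Me1. Against the mean of control arrays 1 and 2 it differed by −5.22 for Scd1, −1.48 for Elovl6, −1.44 for Srebf1, −1.29 for Fasn, −1.07 for Acly, −0.93 for Acacb, −0.68 for Acaca and −0.29 for Mlxipl. These 5 genes, Scd1 to Acly, lay more than 1 lower, as did 3.3% of all genes. For Scd1 this amounts to 37.2-fold, the lowest value among 18027 genes, and Scd3, another desaturase gene, named after its values had been seen, ranked 5 at −4.71. Thrsp, a lipogenic protein gene of liver and fat, differed by −1.75, the acetyl-CoA synthetase gene Acss2 by −1.27 and Pklr, the liver pyruvate kinase gene, by −1.56. Insig1 (−0.37), Scap (−0.36) and Gpam (−0.30), genes of the same regulatory and synthetic steps, lay near the lower quartile of all genes, −0.28. Other neighbours of the pathway, described below, lay higher on array 3 than on the other control arrays. Among them were G6pdx (0.36), Hacd3 (0.29), Elovl5 (0.27), Acss1 (0.26) and Nr1h3 (0.17). On array 3 the hepatocyte list lay at 8.51 against 9.04 and 9.06, and the adipocyte list at 0.66 against −0.3 and −0.15. Among single genes known from adipocytes, Adipoq and Slc2a4 differed by −1.89 and −2.47, and Pparg by 1.19. The dermal sheath and fibroblast list lay at 2.15 against 0.69 and 0.82, and the macrophage list at 2.99 against 2.08 and 2.01. Their part in the result was not tested. This is 1 array and has no test.

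**Figure D4:**
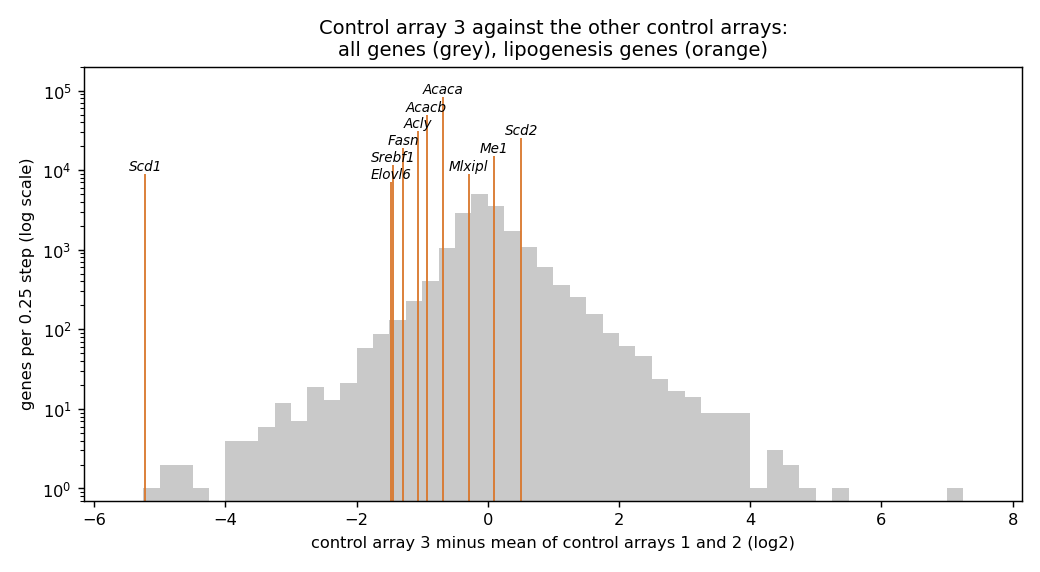
Distribution over 18027 genes of the log2 difference between control array 3 and the mean of control arrays 1 and 2 (grey bars, log axis, steps of 0.25), with the lipogenic genes as orange lines at arbitrary heights. Scd1 at −5.22 has the lowest value of all, and Me1 and Scd2 lie above 0.

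Within the cΔex3 group array 4 was often the lowest or the highest, for the lipogenic genes as for all genes. It was the lowest of the 4 for 6 of the 10 genes, where it was so for 40.5% of all genes, and the highest for Acly, Elovl6 and Scd2, where it was so for 29.2%. Against the mean of arrays 1 to 3 it lay 2.58 higher for Elovl6, 1.64 higher for Acly and 1.36 higher for Scd2. It differed by −1.90 for Me1, −1.75 for Acacb, −1.57 for Scd1 and −1.28 for Acaca, and by −0.19 for Fasn. Array 3 was the highest of the 4 for 6 of the 10 genes, against 23.6% of all genes. On array 4 the adipocyte list lay at 6.29 against 7.30 to 7.72 on arrays 1 to 3, and the keratinocyte list at 1.20 against −2.09 to −1.58. The dermal papilla list lay at 2.64 against −0.79 to 0.04, the endothelium list at 0.41 against 1.53 to 1.81 and the macrophage list at 2.19 against 3.23 to 3.56; their part in the result was not tested. With control array 3 and cΔex3 array 4 both left out, an alternative chosen after these values had been seen, 2 of the 10 genes were higher and 3 lower, where 54.7% of all genes were called. Scd2, Elovl6 and Mlxipl were joined by Acly, at −1.15 (limma, adjusted p = 0.0279), and Acacb, at 0.78 (adjusted p = 0.0264). Because the arrays left out were chosen after the values of these genes were seen, the p-values are no test of them.

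By the file headers the arrays lay in 2 rows of 1 slide, with control arrays 1 and 2 and cΔex3 array 1 in the first. The file names gave other positions for 4 arrays, and the rows used here are those of the headers. Within the first and the second row Scd2 differed by 3.48 and 4.56, Mlxipl by −2.0 and −2.2 and Elovl6 by −3.50 and −1.07. With the row as a block the differences were 4.05 (adjusted p = 0.00202), −2.10 (0.00196) and −2.21 (0.1). Scd1 differed by −0.32 in the first row and by 5.31 in the second, where control array 3 was the only control.

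The genes around the core pathway were taken in 8 lists by role. They held 119 tested neighbours of the pathway, of which 19 rose and 44 fell, or 52.9%, close to the 53% over all genes, with a median of −0.39. Without scaling the counts were 53 and 24. The lists were written with earlier results of these data known. Hepatocyte and adipocyte markers, at −9.07 and 5.71, differed between the same groups of arrays, and their part in each list was not tested.

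Sugar entry had the widest spread, with 4 of 13 genes higher and 6 lower and a median of −2.25. Members known from the liver were lower: Gckr by −9.12, the glucose transporter gene Slc2a2 by −8.84 and Pklr by −3.93. Higher were Slc2a4, the insulin-regulated glucose transporter gene, by 7.23 and the hexokinase gene Hk2 by 3.92. Other members not known as liver genes did not pass, the transporter genes Slc2a1 at 0.0 and Slc2a5 at −2.25 and the hexokinase gene Hk3 at −0.36, named after their values were seen. Slc2a4 was measured at −0.44, −2.85 and −4.11 on the control arrays and at 5.09, 4.85, 5.17 and 3.92 on the cΔex3 arrays. Gckr, Slc2a2, Pklr, Slc2a4 and Hk2 passed the threshold, with adjusted p between 1.03e-05 and 0.000747.

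Of 12 genes that supply citrate and acetyl-CoA, 6 were lower and 1 higher, with a median of −0.86. The balance depends on the scaling, with 2 lower and 2 higher under quantile normalisation, 3 and 2 in the deposited series values and 1 and 4 without scaling. Slc25a1, the carrier that exports citrate from the mitochondrion, fell by 1.71 ± 0.29 (SE; limma, adjusted p = 0.00262; 0.0854 without scaling), while Acly, the next step, did not pass. The malate dehydrogenase gene Mdh1 differed by −1.42 and Acss2 by −2.46, both past the threshold, and the mitochondrial acetyl-CoA synthetase gene Acss1 rose by 3.83. Mdh1 was not past it under quantile normalisation (−0.50, adjusted p = 0.0602).

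Of 9 genes of NADPH supply, 4 were higher and 1 lower, with a median of 0.12, against 8 and 1 without scaling. G6pdx, which opens the pentose phosphate pathway, was measured at 0.70, 0.46 and 0.94 on the control arrays and at 4.11, 5.48, 5.68 and 4.33 on the cΔex3 arrays, without overlap. It rose by 4.20 ± 0.43 (SE; limma, adjusted p = 0.0003), where Me1, which makes the same cofactor, differed by 0.04. Me3, a mitochondrial malic enzyme gene, rose by 3.75, and the cytosolic isocitrate dehydrogenase gene Idh1 fell by 2.29.

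Of 16 other elongase and desaturase genes, 2 were higher and 6 lower, with a median of −0.45, against 5 and 5 without scaling. Fads3 rose by 6.02, the elongase gene of polyunsaturated chains Elovl5 differed by −2.77 and the dehydratase gene Hacd3 by −2.79, both past the threshold. The lowest differences of the list were those of the elongase genes Elovl3, at −8.69, and Elovl2, at −6.87. Both passed the threshold and were named after their values were seen. Scd3, at 1.32, −0.10 and −4.11 on the control arrays and 0.45, 1.58, 2.60 and −0.67 on the cΔex3 arrays, differed by 1.95 (adjusted p = 0.26) and, like Scd1, was lowest on control array 3.

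Regulators of SREBP-1 and ChREBP were higher for 3 of 28 genes and lower for 8, with a median of −0.11, but higher for 6 and lower for 8 with quantile normalisation, normexp or the deposited series values, and higher for 14 and lower for 6 without scaling. Scap, which escorts SREBP out of the endoplasmic reticulum, fell by 1.82 ± 0.28 (SE; limma, adjusted p = 0.00188) and Insig1, which holds it back, differed by −2.02 ± 0.56 (SE; adjusted p = 0.0205), a call lost without control array 1 (adjusted p = 0.0566) or 2 (0.0726) or cΔex3 array 1 (0.053). Neither passed without scaling. The nuclear receptor genes Ppara and Rxra differed by −5.47 and −2.25 and the repressor gene Bhlhe40 by −2.73, all past the threshold, and Pparg, the adipocyte receptor gene, rose by 2.60. Nr1h3, which encodes the receptor LXRα that raises Srebf1, differed by −1.06 (adjusted p = 0.0951), and passed without cΔex3 array 4 (−0.63, adjusted p = 0.0441). Thrsp was measured at 5.59, 6.14 and 4.11 on the control arrays and at 5.78, 5.27, 6.06 and 4.76 on the cΔex3 arrays. It differed by 0.19 (95% interval −1.07 to 1.44; adjusted p = 0.787) and overlapped between the groups.

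Of 14 tested genes that control acetyl-CoA carboxylase, 2 were higher and 5 lower, with a median of −0.08, against 4 and 5 with quantile normalisation and 9 and 2 without scaling. For the AMP-activated kinase, which inactivates both carboxylases, genes of the same subunit differed in opposite directions. Of the catalytic subunit genes, Prkaa2 fell by 3.44 and Prkaa1 differed by 1.21. Of the β subunit genes, Prkab2 rose by 2.10 and Prkab1 differed by −0.71. All of these passed the threshold, and Prkaa1 and Prkab1 were named after their values were seen. Mlycd, which encodes the decarboxylase that removes malonyl-CoA, fell by 2.09. Of 20 glycerolipid synthesis genes, 3 were higher and 7 lower, with a median of −0.80, against 7 and 3 without scaling. The lipin gene Lpin2 differed by −4.71 and the acyltransferase gene Gpat2 by −4.06, both past the threshold, and Agpat1 rose by 2.03. Gpam, the mitochondrial acyltransferase gene, differed by −1.30 (adjusted p = 0.0129; 0.0502 without control array 2), and Dgat2, which makes triglyceride, by −0.97 (adjusted p = 0.0714), passing without cΔex3 array 3 (−1.22, adjusted p = 0.0268). Of 7 tested genes of mitochondrial fatty acid synthesis, 5 were lower, the highest difference was −0.19 and the median −1.09: Cbr4 differed by −1.09, Mcat by −0.77 and Oxsm by −1.17. Without scaling Cbr4 differed by 0.02 and Mcat by 0.34, so that their direction turned, and Oxsm by −0.06 (adjusted p = 0.852).

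**Figure D5:**
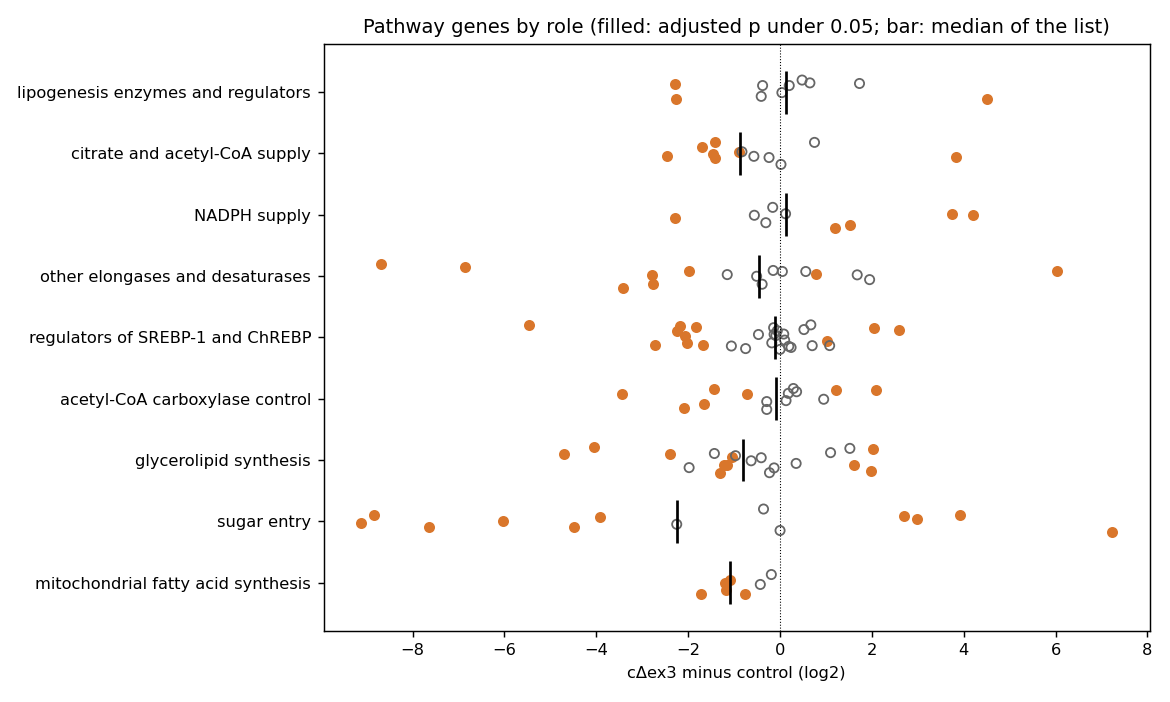
Difference between the cΔex3 and the control arrays on the log2 scale for the 10 lipogenic genes (top) and 119 neighbouring genes by role; filled points have an adjusted p under 0.05, open points do not, and the bar is the list's median. The core genes have a median of 0.12 with Scd2, Elovl6 and Mlxipl apart, while sugar entry genes span −9.12 to 7.23.

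Other lipogenic cell types were looked for by their markers. Of 7 tested sebocyte markers, 2 were higher and 2 lower, and their median lay at −3.61 to −3.21 on the control and −2.93 to −1.86 on the cΔex3 arrays, although the median of the differences was −0.75. Awat2, a wax synthase gene of the sebaceous gland, was measured at −4.03 to −3.40 on the control and −5.64 to −4.87 on the cΔex3 arrays. Of 7 brown adipocyte markers, 2 were higher and 1 lower, with a median of 0.28. Of these, 0 were higher with normexp or in the deposited series values (limma; 1 lower in each), and 0 with probes above background on all arrays or with arrays of 1 mouse only. Ucp1, the uncoupling protein gene that defines brown fat, was well above background on 0 of 3 control and 4 of 4 cΔex3 arrays, so that it passed the filter through the cΔex3 group, and was at least 3.55-fold higher on the latter arrays. For this bound each control array counted with the probe's signal or with the lowest signal above background on that array, whichever was higher. Of 8 tested keratinocyte markers, 1 was higher and 1 lower, and Krt14, a basal keratin gene, differed by 1.55 (adjusted p = 0.136), passing without cΔex3 array 1 (2.21, adjusted p = 0.0148). Markers of dermal papilla were higher for 1 and lower for 2 of 8 tested, of macrophages higher for 2 of 6, of endothelium higher for 4 and lower for 1 of 6, of mammary epithelium for 1 and 3 of 6, and of oligodendrocytes and Schwann cells for 3 and 1 of 6. The β-catenin gene Ctnnb1 stood at a difference of −0.03 (limma, adjusted p = 0.871), but of 0.46 with quantile normalisation and 0.52 with normexp, and the part of the gene its probe reads is not known here.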

How the data were processed

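The series holds 7 one-colour Agilent arrays, read per the file headers with Feature Extraction 10.7.1.1. The deposited intensity used is the processed signal, background-subtracted and detrended per the file headers, linear and without scaling between arrays; median spot and background intensity served the normexp alternative. Outliers and spots well above background come from the deposited 0 or 1 flags (other values). The authors' deposited series table holds log2 values whose making is not stated; its columns have medians of 7.407 to 7.413 and correlate at 0.9999 with each array's values after normexp and quantile normalisation.

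Header and file name gave different slide numbers for 7 of 7 arrays and different positions for 4, and samples follow the deposit's record. Values are log2 of the processed signal minus the array's 75th percentile, without control spots and outlier spots, with spots of a probe averaged (55681 probes, 49 with no value on some array). A RefSeq table on GRCm38.p6 named 28026 of them by transcript accession; the array's annotation uses another build. A probe was tested if well above background on at least 3 arrays, and the probe with the highest mean stood for its gene. limma 3.58.1 in R 4.3.3 compared the groups (lmFit, then eBayes, two-sided, without covariates) and gives all adjusted p-values of genes; ratios of 2 genes had an exact permutation test. The steps were tested on simulated data. Of 22 other settings 1, which left out 2 arrays, was chosen after seeing the data. Named are the 10 genes, in each neighbour list up to 3 tested genes of lowest p, and a set list (Slc25a1, Acss2, G6pdx, Thrsp, Insig1, Scap, Nr1h3, Pparg, Gpam, Dgat2, Slc2a4, Pklr, Alb, Adipoq, Ucp1, Awat2, Krt14, Acta2, Pdgfra, Ctnnb1), of which 1 further gene is not reported here; Scd3, Acsl6, Slc2a1, Slc2a5 and Hk3 were named after their values were seen. The genes and lists were chosen with earlier results of these data known. The labels call the arrays biological replicates of separate mice.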

Additional observations from a re-analysis of the deposited data

Results flagged for a closer look

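None of the 10 lipogenic genes had a cΔex3 array far enough from the other 3 to pass Dixon's criterion for 4 values. Of 54 genes examined 2 did, where chance gives about 1 in 20: Scap, where array 4 lay at 3.98 against 3.10 to 3.18 (ratio of gap to range 0.9070), and Slc2a2, where array 1 lay at −4.25 against −3.13 to −2.90 (0.8291). Control groups of 3 arrays were not examined in this way.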

How the results depend on the processing

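Over 22 other settings, 28 of 54 single genes kept their direction and their side of the threshold. Scaling shifted the median difference of all genes by 0.22 with quantile normalisation, 0.2 with normexp and in the deposited series values, 0.17 with the 75th percentile over probes well above background on all arrays, and 1.11 without scaling. Without scaling 10088 genes were higher and 1606 lower, against 4293 and 5267; of the lipogenic genes 3 were higher and 1 lower, and of the neighbours 53 and 24. With each gene's second brightest probe, which only 4752 genes have, 1025 were higher and 1217 lower; the lipogenic genes counted 0 and 0 and the neighbours 2 and 11. One lipogenic gene fewer, 1, was lower with quantile normalisation, normexp, the deposited series values, the 75th percentile over probes well above background on all arrays and the slide row as a block. Leaving out 1 array at a time gave 1 to 2 higher and 1 to 2 lower, and leaving out control array 3 and cΔex3 array 4 gave 2 and 3. The list medians moved to −7.46 for hepatocytes with the second brightest probe, to 6.35 for adipocytes with quantile normalisation, 6.82 without scaling, 6.64 without control array 3 and cΔex3 array 4 and 5.4 to 6.35 without 1 array, and to 4.29 for dermal sheath without scaling. The change of the ratio of Scd2 to Scd1 was 5.34 with arrays of 1 mouse only, that of Mlxipl to Srebf1 −1.18, and that of Acacb to Acaca −0.01 there and with quantile normalisation.

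Signs turned as follows. Acly: 0.38 with quantile normalisation, 0.73 without scaling, 0.4 with normexp and in the deposited series values. Without scaling: Srebf1 0.7, Cbr4 0.02, Mcat 0.34, Nr1h3 0.05 and Dgat2 0.14. Dgat2: 0.01 with quantile normalisation, 0.15 with normexp and in the deposited series values. Ctnnb1: 0.46 with quantile normalisation, 0.14 with the percentile over probes above background on all arrays, 1.08 without scaling, 0.52 with normexp and in the deposited series values, 0.01 with arrays of 1 mouse only. With arrays of 1 mouse only: Acaca −0.18, Acacb −0.19, Fasn −0.36, Scd1 −0.75, Me1 −0.75, Thrsp −0.59 and Scd3 −0.72. Without control array 3 and cΔex3 array 4: Fasn −0.18 and Thrsp −0.16. Me1: −0.26 with the mean of probes and −0.04 with the slide row as a block. With the second brightest probe: Mlxipl 0.03 and Scd3 −0.03. Leaving out 1 array gave −0.23 to 0.55 for Fasn, −0.01 to 2.93 for Scd1, −0.33 to 0.52 for Me1 and −0.4 to 0.62 for Thrsp. Apart from what the alternatives' construction shows, the cause was not tested.

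Deviations from the group means on same-numbered arrays correlated at −0.009, −0.001 and 0.018, and 0 of 3 correlated best with their own number, so that the numbers show no pairing. With the replicate number as a block 4464 genes were higher and 4988 lower, Scd2 differed by 4.17, Mlxipl by −2.08 and Elovl6 by −2.94, all past the threshold, and the lipogenic genes counted 1 higher and 2 lower; of the 54 genes Gpam lost its call (adjusted p = 0.0501) and Acsl6, a synthetase gene looked at after its values had been seen, gained one (−2.60, adjusted p = 0.0195). The number of arrays limits the precision, and dim probes are limited by signal over background.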
